A study of Mus musculus with 42 samples.

Results

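The chromatin regions described here became more accessible in mouse lung mesenchymal cells in 2 settings, culture on a stiff gel and bleomycin injury of the lung. They were chosen by the authors' group concentrations, a log2 measure of the mean normalized ATAC-seq reads of a region in a group of libraries. A region of the authors' 32 kPa list was taken when its concentration was higher on 32 kPa than in sham cells and when it overlapped, by 1 bp or more, a region of the day 14 list that was higher at day 14 than in sham. Of 17328 regions higher on 32 kPa, 5945 (34.3%) met that rule, and they overlapped 5834 (33.7%) of the 17333 regions higher at day 14. They are called shared regions below. The whole lists hold 58510 regions for 32 kPa and 25518 for day 14, so the shared regions make up a minority of each.

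The study holds 42 samples, 21 of ATAC-seq, which maps open chromatin by transposase cutting, and 21 of RNA-seq. The culture arm used CD1 mice with a Col1a1-GFP reporter. Their GFP-positive lung cells, negative for CD45, EpCAM and CD31, were either taken fresh from sham mice or grown for 5 days on collagen 1 coated PDMS gels of 0.2 kPa (soft) or 32 kPa (stiff) in DMEM with 10% serum, with 3 RNA samples per group. The injury arm used C57BL/6 mice in which cells of the Col1a2 lineage were traced. Those cells were sorted as GFP-positive, CD45-negative and EpCAM-negative, without the CD31 step, from sham mice and from mice 14 or 56 days after bleomycin, with 4 RNA samples per group. All lungs were digested with Liberase for 45 minutes, so every group passed through dissociation. The gel groups were then grown for 5 days while the other groups were taken fresh, so time since dissociation differs along with culture. Strain, reporter and sort differ between the arms. The labels do not say which samples came from separate mice or cultures, so the p-values below weigh differences against the scatter of these libraries alone, and that scatter may be technical.

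Open regions away from genes often act as enhancers, where transcription factors bind and help to raise the activity of a gene that can lie far away. AP-1 factors are dimers of FOS and JUN family proteins that bind a short palindrome, and they are known for opening chromatin in cells that respond to serum, stress or wounding. RUNX factors and the TEAD partners of the mechanosensitive coactivators YAP and TAZ often bind near AP-1. In the injured lung, fibroblasts take on a matrix-producing state that can fade as the injury resolves.

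The sequences printed next are the 200 bases around the centres of 10 shared regions. They are taken from RefSeq's GRCm38.p6 (the same coordinates as mm10), plus strand. The regions of Il1rl1, Grem1 and Ptprn are shorter than 200 bases, so their windows run past the region on both sides. Most of the printed windows show the feature that most of the shared regions have in common, short AP-1 words. Those of Fut9 and A530072M11Rik come from regions among the strongest by the smaller of both folds. The others come from regions named for genes whose RNA is described below. Not every strong region has such a word. The region nearest 1700092E19Rik, which ranked first by that measure, and that nearest 4930556G01Rik are not printed. Both held no AP-1 word around their centres. Capitals mark exact matches, on either strand, to AP-1 (TGANTCA), RUNX (AACCACA) or TEAD (GGAATG), and such a match describes letters only, not a bound factor. The regions named for Fut9, A530072M11Rik, Bmper and Gria1 lie in introns, that of Ptprn at the promoter and the others between genes.
Fut9: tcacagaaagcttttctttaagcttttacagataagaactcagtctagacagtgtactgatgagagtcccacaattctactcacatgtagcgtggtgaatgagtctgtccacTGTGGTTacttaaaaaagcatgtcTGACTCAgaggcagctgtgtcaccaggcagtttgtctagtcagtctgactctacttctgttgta
A530072M11Rik: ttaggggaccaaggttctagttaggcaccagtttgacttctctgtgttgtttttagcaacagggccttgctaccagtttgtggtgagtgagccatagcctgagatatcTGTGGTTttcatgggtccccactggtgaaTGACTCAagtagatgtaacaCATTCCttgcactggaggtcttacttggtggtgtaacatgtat
Serpinb2: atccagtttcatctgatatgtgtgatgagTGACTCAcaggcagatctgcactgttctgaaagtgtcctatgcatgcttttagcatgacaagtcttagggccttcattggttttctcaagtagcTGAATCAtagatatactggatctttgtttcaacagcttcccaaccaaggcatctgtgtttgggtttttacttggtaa
Spp1: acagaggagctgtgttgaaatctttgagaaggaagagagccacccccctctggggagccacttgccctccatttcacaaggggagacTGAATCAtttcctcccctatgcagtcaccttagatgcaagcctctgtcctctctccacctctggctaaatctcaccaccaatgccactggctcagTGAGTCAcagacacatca
Grem1: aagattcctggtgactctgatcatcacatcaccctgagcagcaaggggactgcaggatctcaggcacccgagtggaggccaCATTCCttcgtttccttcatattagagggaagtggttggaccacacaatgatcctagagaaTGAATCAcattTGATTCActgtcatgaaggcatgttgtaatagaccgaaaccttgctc
Il1rl1: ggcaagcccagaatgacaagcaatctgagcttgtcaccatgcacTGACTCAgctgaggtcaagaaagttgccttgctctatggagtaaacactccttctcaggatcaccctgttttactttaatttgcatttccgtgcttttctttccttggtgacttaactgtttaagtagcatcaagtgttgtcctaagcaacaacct
Bmper: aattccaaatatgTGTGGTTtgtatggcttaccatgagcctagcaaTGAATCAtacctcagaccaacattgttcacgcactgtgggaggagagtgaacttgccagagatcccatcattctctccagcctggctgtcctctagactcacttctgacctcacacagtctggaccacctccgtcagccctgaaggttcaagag
Runx1: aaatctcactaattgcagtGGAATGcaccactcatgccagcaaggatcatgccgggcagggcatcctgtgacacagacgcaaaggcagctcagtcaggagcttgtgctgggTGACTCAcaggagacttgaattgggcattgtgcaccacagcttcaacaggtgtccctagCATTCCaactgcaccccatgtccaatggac
Gria1: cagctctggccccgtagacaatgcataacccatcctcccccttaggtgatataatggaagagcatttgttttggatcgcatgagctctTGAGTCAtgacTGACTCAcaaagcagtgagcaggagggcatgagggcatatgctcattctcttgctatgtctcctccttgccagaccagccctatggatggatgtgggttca
Ptprn: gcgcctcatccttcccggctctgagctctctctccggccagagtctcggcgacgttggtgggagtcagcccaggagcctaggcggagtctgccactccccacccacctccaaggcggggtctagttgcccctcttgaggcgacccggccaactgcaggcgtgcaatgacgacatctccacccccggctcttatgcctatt

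The Fut9 window at chr4:25645659-25645858 holds a RUNX word and an AP-1 word, as does the A530072M11Rik window at chr4:16211666-16211865, which also holds a TEAD word. The windows of Serpinb2 (chr1:107506001-107506200), Spp1 (chr5:104380678-104380877), Grem1 (chr2:113765067-113765266) and Gria1 (chr11:57091327-57091526) hold 2 AP-1 words each. Those of Il1rl1 (chr1:40400736-40400935), Bmper (chr9:23397997-23398196) and Runx1 (chr16:92930188-92930387) hold 1. The Il1rl1 word, at base 45 of the window, lies just outside the shared region itself (chr1:40400789-40400882). The Ptprn window (chr1:75264119-75264318), at a promoter, holds none of the 3 words. The nearest annotated start lies 154218 bp away for the Fut9 region and 18 bp away for the Ptprn region. A region carries here the name of its nearest gene in the authors' annotation, and no link between the region and that gene was measured.

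Accessibility rose by similar amounts in both settings. The concentrations and folds are the authors' own values per region and group, with no values per library, and since they chose the regions they are given as a description. The median log2 concentration of the shared regions was 3.74 in CD1 sham cells and 6.13 on 32 kPa, and 4.12 in C57BL/6 sham cells and 6.41 at day 14. The log2 fold had a median of 2.35 on 32 kPa (quartiles 1.61 and 3.12, highest 6.67) and of 2.15 at day 14 (quartiles 1.52 and 2.98, highest 6.83). Both log2 folds were 2 or more in 2645 regions (44.5%), 3 or more in 922 and 4 or more in 116. In the authors' deposited tables the 32 kPa list keeps log2 folds down to 0.31 and the day 14 list starts at 1.0, and 477 shared regions lie under 1 on 32 kPa. Across the 5945 regions the 2 folds had a Spearman correlation of 0.564, as a description, since the sham levels from which both folds are taken were themselves correlated at 0.667. The plot of both folds shows the regions spread along the diagonal.

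**Figure D1:**
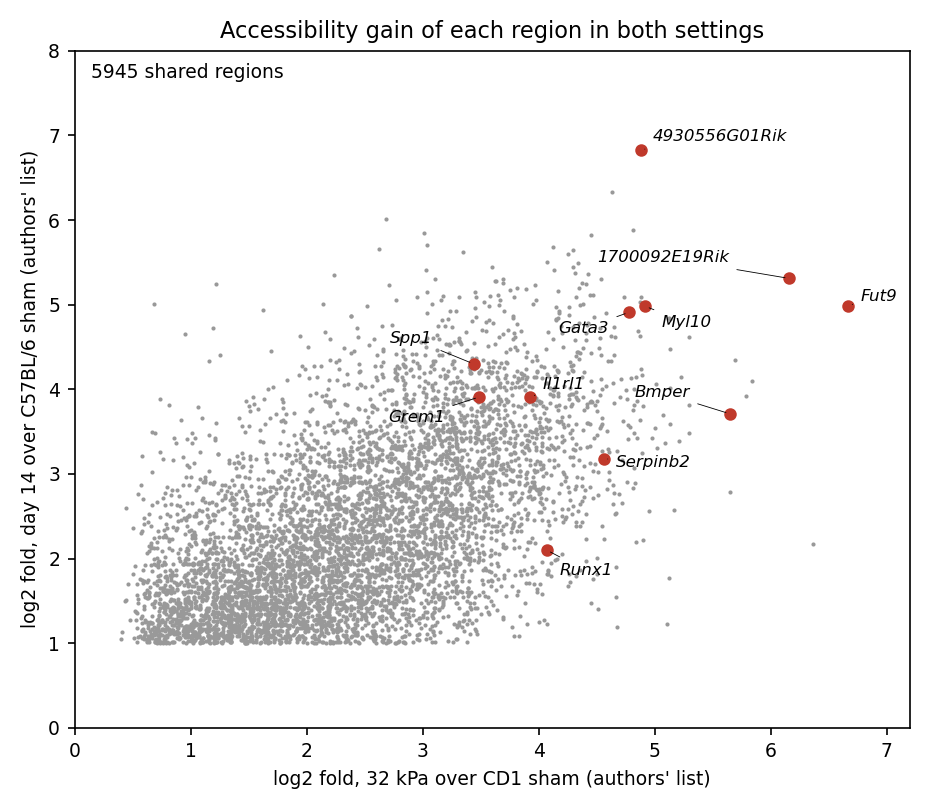
Each dot is 1 of the 5945 shared regions, with the authors' log2 fold of 32 kPa over CD1 sham on the x axis and of day 14 over C57BL/6 sham on the y axis. Red dots mark 11 named regions, from Runx1 (4.07 and 2.10) to Fut9 (6.67 and 4.99), and the straight lower edge at 1.0 is the limit of the day 14 list.

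Few regions higher on 32 kPa moved the other way after injury, with 20 (0.115%) that overlapped a region lower at day 14. Most of the 41182 regions lower on 32 kPa overlapped no listed day 14 region. Of them 2715 (6.59%) overlapped a region lower at day 14 and 536 (1.30%) one that was higher. The rule's edge is sharp: the smallest overlap among the shared regions was 26 bp, the median overlap 225 bp, the nearest region left out lay 20 bp from a day 14 region, and 43 left-out regions lay within 100 bp of one. Regions gained on 32 kPa only (11383) had a median log2 fold of 2.73 there, and regions gained at day 14 only (11499) had one of 1.74.

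The largest gains lay near genes of unlike kinds. The region in intron 2 of Fut9, which encodes a fucosyltransferase, had log2 concentrations of 0.72 in CD1 sham and 7.39 on 32 kPa, and of 1.75 in C57BL/6 sham and 6.74 at day 14. Ranked by the smaller of the 2 log2 folds, an intergenic region nearest the non-coding gene 1700092E19Rik came first, with 6.16 on 32 kPa and 5.31 at day 14. An intergenic region 145164 bp from the start of Gata3, a transcription factor of lymphoid and epithelial lineages, gained 4.78 and 4.91. Regions nearest Zhx2, a zinc finger homeobox repressor, and Odf2l gained 5.12 and 4.84, and 5.13 and 4.83. A region at -9301 bp from the start of Crbn, the substrate receptor of a ubiquitin ligase, rose from 2.05 to 6.87 in culture and from 0.94 to 6.82 at day 14. All of these regions started from low concentrations in both shams.

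The soft gel opened many of the same regions. This comparison uses the same CD1 sham libraries as the 32 kPa list, so the values are given side by side only. Of the 5945 shared regions, 2670 (with 1 lower, 44.9% listed in all) were listed as higher on 0.2 kPa than in sham, against 25.2% of the regions gained on 32 kPa only. Their median log2 fold was 2.29 on 0.2 kPa and 2.86 on 32 kPa, while the shared regions not listed for 0.2 kPa had a median of 1.78 on 32 kPa. Between the gels, 411 shared regions (6.91%) were listed, all of them higher on 32 kPa, with a median log2 difference of 1.09. The corresponding share among regions gained on 32 kPa only was 11.9%. A region that is not listed was not called by the authors at a log2 fold of 1.0 and may still differ.

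Most of the regions closed again after injury. Day 56 was compared with the same day 14 libraries that define the regions, so a lower value at day 56 is in part built in. Of the 5945 regions, 5374 (90.4%) were listed as lower at day 56 than at day 14 and none as higher, with a median log2 difference of -2.06. Among regions gained at day 14 only, 74.9% were listed as lower. The 5374 regions had median log2 concentrations of 3.97 in sham, 6.36 at day 14 and 4.18 at day 56, values that describe regions picked for being lower at day 56. Another comparison, of day 56 with sham, listed 156 shared regions as higher and 2 as lower. Those 156 had medians of 4.79 in sham, 7.74 at day 14 and 6.16 at day 56, and 110 of them were also listed as lower than at day 14.

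Individual regions differed in how far they closed. The Crbn region was 4.76 above sham at day 56 on the log2 scale and was not listed against day 14. The region upstream of Myl10, a myosin light chain gene, had concentrations of 3.64 in sham, 8.62 at day 14 and 5.45 at day 56. A region in Fmn1, which encodes the actin nucleator formin 1, was at 4.39, 8.73 and 6.45. By contrast, the Serpinb2 region went from 2.33 in sham to 5.51 at day 14 and 1.58 at day 56, and the Grem1 region from 1.56 to 5.47 and 1.80.

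The shared regions were mostly distal. In the authors' annotation of the 5834 overlapped day 14 regions, 48.1% were intergenic, 47.8% intronic and 80 (1.37%) at a promoter. The promoter share among regions gained at day 14 only was 3.55%. The median distance to the nearest start was 36283 bp, against 32314 bp for regions gained at day 14 only, and 1.80% against 5.11% lay within 1 kb of a start. Annotated repeats held 20.2% of the regions, against 17.0%, and LTR elements, which derive from endogenous retroviruses, held 8.86%, against 7.24%. The LTR element RMER15 held 45 regions. Shared regions on chromosome X numbered 67, and 21.0% of the regions had another one within 10 kb.

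An AP-1 word was the most widely shared sequence feature. In the 300 bases around the centre, 4280 of the 5945 regions (72.0%) held TGANTCA. The share was 60.2% in regions gained on 32 kPa only, 43.0% in those gained at day 14 only and 12.4% in those lower in both. In all regions of the 32 kPa and day 14 lists, which include the shared regions, it was 29.3% and 38.8%. The form with C or G in the middle, which AP-1 dimers prefer, was present in 62.6%. The median GC content of the windows was 47.0%, against 44.7% for 32 kPa only, 48.7% for day 14 only and 48.0% for regions lower in both. Words of the other factors were less frequent or less unlike the other sets, as the bars by motif show.

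**Figure D2:**
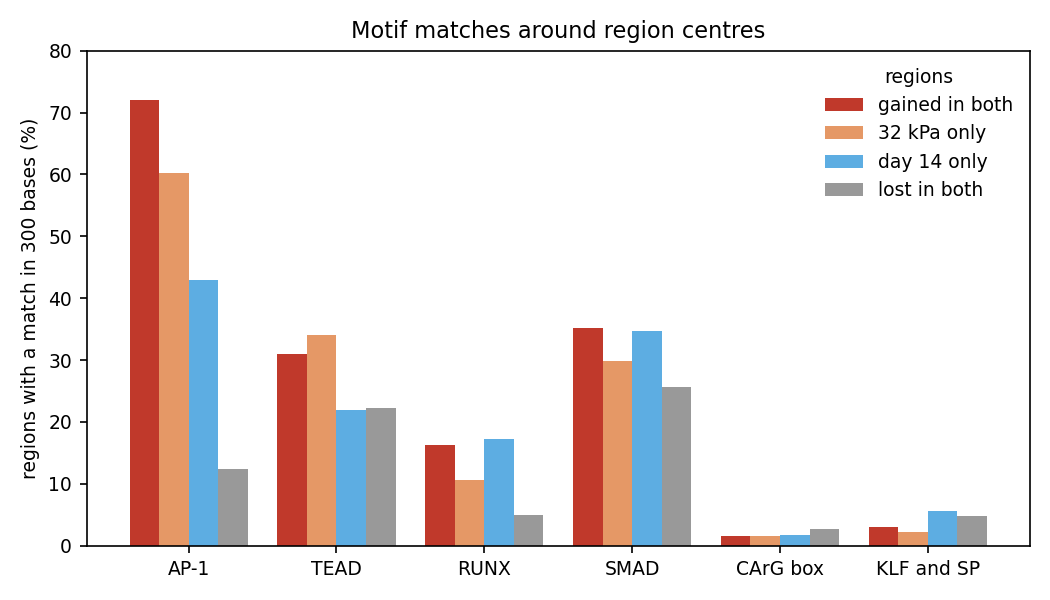
Bars give the percent of regions with an exact match in the 300 bases around the centre, for 6 motifs (x axis) and 4 sets of regions (colours). AP-1 separates the sets most, from 72.0% in the regions gained in both settings to 12.4% in those lower in both, while the CArG box is at 1.56% in the regions gained in both.

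The TEAD word was in 31.0% of the shared regions, 34.0% of regions gained on 32 kPa only, 21.9% of those gained at day 14 only and 22.2% of those lower in both. The RUNX word showed the other pattern, with 16.4% in shared regions, 17.2% in those gained at day 14 only, 10.6% in those gained on 32 kPa only and 4.94% in those lower in both. For TEAD the shared regions were therefore nearer to the culture set, and for RUNX nearer to the injury set. The SMAD word CAGACA, bound by effectors of TGF-beta, was in 35.2%, 29.9% of 32 kPa only, 34.7% of day 14 only and 25.6% of those lower in both. The GC-rich KLF and SP word GGGCGGG, common at promoters, was in 3.01%. Both AP-1 and TEAD words occurred in 1170 regions (19.7%), both AP-1 and RUNX in 603 (10.1%), and none of the 3 in 789 (13.3%).

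AP-1 words sat at the centres. Within 25 bp of the centre the shared regions held 7.04 AP-1 matches per kb, and the density fell through 5.08, 3.36, 2.04 and 1.33 to 0.75 at 125 to 150 bp. The other gained sets had the same kind of profile at lower density, from 5.79 to 0.587 for 32 kPa only and from 3.55 to 0.515 for day 14 only, and the share of matches within 25 bp of the centre was 35.9%, 36.9% and 35.3%. In the regions lower in both the density ran from 0.545 to 0.236. The plot of AP-1 density by distance shows all 4 sets.

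**Figure D3:**
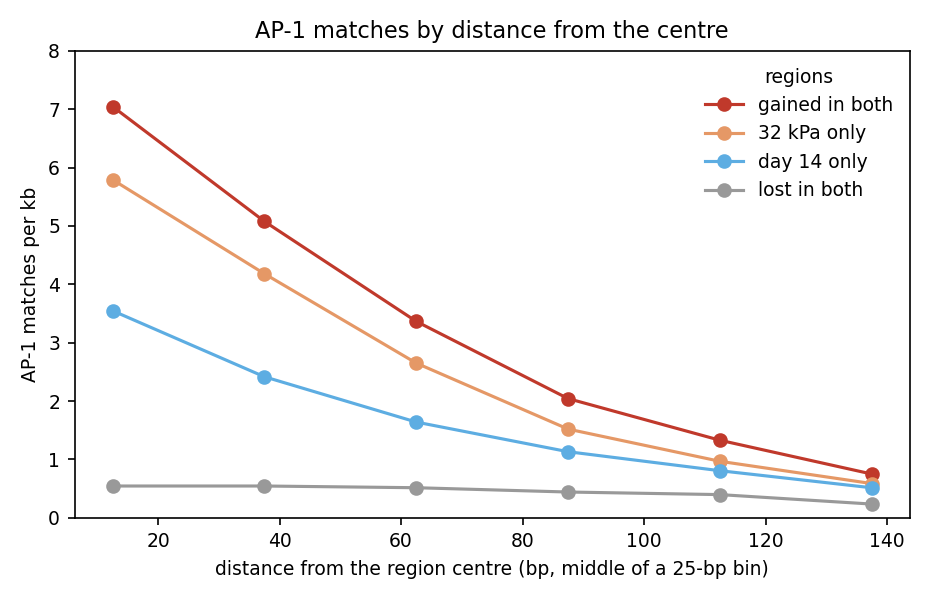
AP-1 matches per kb (y axis) against the distance from the region centre in bp (x axis, bins of 25 bp) for 4 sets of regions. The regions gained in both settings fall from 7.04 at the centre to 0.75 at the edge, and the regions lower in both stay under 0.6.

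The number of AP-1 words went along with the other readouts, as a description. No AP-1 word was found in 1665 shared regions, 1 in 2948, 2 in 1140 and 3 or more in 192. The share listed as lower at day 56 than at day 14 was 84.7%, 91.4%, 94.8% and 97.4% in that order. The share listed as higher on 0.2 kPa was 40.7%, 44.1%, 50.5% and 60.4%. Median folds at day 14 were 1.98, 2.15, 2.27 and 2.63, so stronger regions also held more words. RUNX words were in 13.7%, 13.6%, 15.9% and 22.3% of the regions in 4 equal groups from the lowest to the highest smaller fold, and AP-1 words went from 68.1% to 74.8%.

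RNA of the nearest genes was measured in separate libraries and was not used to choose the regions. RNA levels are given below as CPM, the reads of a gene scaled to a common library total, recovered from the authors' normalized values, and each log2 difference comes from limma on log2(rescaled value + 1), with its standard error (SE) and the p adjusted over all genes. The recovered reads per library numbered from 34313376 to 67721210 in CD1 and from 14288605 to 51288435 in C57BL/6, and the least deep libraries were of day 56. The stiff gel replicate 3 stood apart from its group in many genes, and results that rest on it are given with their value without it. The 12 mesenchyme markers summed to between 95001 and 132301 CPM in every fresh group, and to between 5057 and 6261 CPM on the gels, so they were abundant in the fresh cells and far lower in culture. The tables of the 2 strains were normalized separately, so levels are compared only within a strain. In bulk samples, fewer cells of a type and less RNA per cell cannot be told apart.

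The 5945 regions were annotated to 3942 genes, of which 2693 had 1 region, 782 had 2 and 467 had 3 or more. RNA levels passed the filter for 3153 of these genes in CD1 and 3145 in C57BL/6, and a gene could pass through its higher group alone. On 32 kPa, 1055 (33.5%) were higher than in sham and 1343 (42.6%) lower by limma at an adjusted p of 0.05, beside 32.4% and 41% of all genes tested. Both culture shares lay near those of all genes. On 0.2 kPa, 1080 (34.3%) were higher and 1274 (40.4%) lower, beside 31.9% and 39.2% of all genes. At day 14, 503 (16.0%) were higher and 230 (7.31%) lower, beside 9.54% and 6.35%. Of genes that had day 14 gained regions but no shared one, 13.3% were called higher and 7.78% lower at day 14, and 26.1% higher and 49.4% lower on 32 kPa, and the difference from genes with a shared region was not tested. At day 56 against day 14, which shares the day 14 libraries, 195 (6.2%) were higher and 457 (14.5%) lower, beside 5.7% and 8.48%. The median log2 change was -0.25 on 32 kPa (-0.26 over all genes) and 0.14 at day 14 (0.05 over all genes). The scaling matters at day 56: with the values as deposited, without rescaling, the median of all genes between day 56 and day 14 went from -0.08 to -0.27, and the share of higher genes among the calls of genes with a shared region went from 29.9% to 15.3%.

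The remaining comparisons gave almost no calls. Between 32 and 0.2 kPa limma called 0 of the 3153 genes in either direction (0% of all genes, both directions). By edgeR 0 were called, beside 0 higher and 1 lower of all 18488 genes. DESeq2 called 0 higher and 13 lower, beside 4 and 39. At an unadjusted p under 0.05, limma had 51 higher and 179 lower, beside 324 and 687 of all genes. Without stiff gel replicate 3 limma called 35 higher and 123 lower, beside 337 and 509. Day 56 differed from sham in 1 gene by limma, beside 0% of all genes higher and 0.00473% lower. That gene, named after its value was seen, was Angpt4, an angiopoietin, which had 2 shared regions and fell by 1.54 on the log2 scale (limma adjusted p = 0.0185). Limma no longer called a lower gene here with the replicate block, or without day 56 replicate 1, 2 or 3 or sham replicate 1 or 4. At an unadjusted p under 0.05 limma had 143 higher and 133 lower of the 3145 genes, beside 642 and 688 of all 21134. Between day 56 and sham edgeR called 0 higher and 1 lower, as over all genes. DESeq2 called 18 and 6, beside 54 and 26 of all genes.

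Genes with a shared region near or at their start were called higher in larger shares, as a description. Of all genes, 32.4% were higher and 41% lower on 32 kPa, and 9.54% were higher and 6.35% lower at day 14. Of genes with a shared region within 10 kb of the start, 40.5% were higher and 34.9% lower on 32 kPa. At day 14, 22.4% of these were higher and 4.16% lower. With 3 or more regions anywhere, 39.6% were higher and 39.6% lower on 32 kPa, and 77 of 385 (20%) higher and 6.23% lower at day 14. Of the 78 genes with a shared region at the promoter, 63 were tested in CD1 and 61 in C57BL/6. On 32 kPa, 34 of these (54.0%) were higher and 11 lower, and at day 14, 21 (34.4%) were higher and 1 lower. At day 56, 19 of them (31.1%) were lower than at day 14 and 2 (3.28%) higher, beside 8.48% and 5.7% of all genes. The bars of RNA calls show these shares beside those of all genes.

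**Figure D4:**
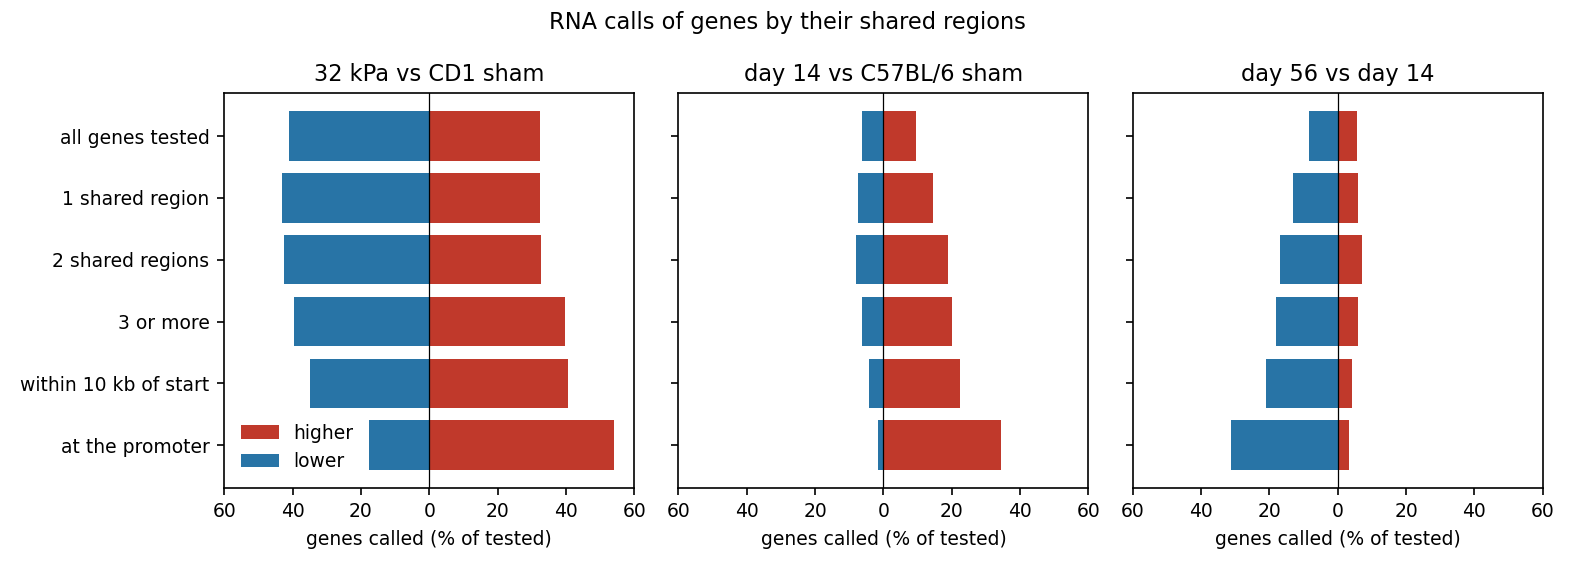
Bars give the percent of tested genes that limma called higher (right, red) or lower (left, blue) in 3 comparisons, for all genes and for genes grouped by their shared regions. At day 14 the share called higher goes from 9.54% of all genes to 34.4% of genes with a shared region at the promoter, and on 32 kPa from 32.4% to 54.0%.

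Of the 2985 genes tested in both strains, 307 (10.3%) were higher in both 32 kPa and day 14 cells, beside 7.19% of all genes, and 183 (6.13%) were lower in both, beside 6.39%. Another 105 (3.52%) were lower on 32 kPa and higher at day 14, beside 2.4%, and 16 (0.536%) changed the other way, beside 0.402%. Among genes with a promoter region, 18 of 57 (31.6%) were higher in both.

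The genes are grouped below by lists of known function. Of the 21929 genes tested in either strain, 15.1% had a shared region, and each list is to be read against that share, against 32.4% higher and 41% lower among all genes on 32 kPa, and against 9.54% and 6.35% at day 14. The lists give no test, and the median log2 change over all genes was -0.26 on 32 kPa and 0.05 at day 14. Of 16 AP-1 subunit genes, Maf had 7 shared regions and Fos and Fosl1 1 each. Fosl1, the FRA-1 subunit, has its region 2565 bp upstream, with log2 folds of 3.31 on 32 kPa and 2.49 at day 14. Its RNA was at 1.27, 1.34 and 1.78 CPM in CD1 sham, 162, 188 and 230.2 on 0.2 kPa and 262, 268 and 159 on 32 kPa. In C57BL/6 it was at 0.682, 2.65, 2.77 and 2.71 in sham, 5.97, 10.9, 13.1 and 5.33 at day 14 and 1.59, 2.38, 0.670 and 1.96 at day 56. Every culture library lay far above its sham, and the day 14 libraries lay above theirs by less. The log2 difference was 7.12 ± 0.23 (SE, limma adjusted p = 8.77e-10) on 32 kPa and 2.12 ± 0.54 (limma adjusted p = 0.0162) at day 14, and the latter missed the threshold without day 14 replicate 2 (1.98) or 3 (1.89).

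Fos, the immediate-early subunit, moved the other way although its region, 45873 bp from its start, gained 1.5 and 1.71. Its RNA was at 2605, 2988 and 2627 CPM in CD1 sham and at 3.35, 3.20 and 5.45 on 32 kPa. In C57BL/6 it was at 3671, 3148, 4079 and 4068 in sham, 1503, 1269.8, 1890.5 and 1241 at day 14 and 3424, 3909, 3659 and 3096 at day 56. Fos fell by 9.58 on the log2 scale on 32 kPa and by 1.31 at day 14 (limma adjusted p = 0.000171), and day 56 was close to sham. Fos is one of the genes known to be induced by tissue dissociation. The gel cells had days of culture after dissociation and the sham cells had none, and the part of this was not tested. Maf fell by 2.46 on 32 kPa, and its day 14 difference was -0.43 ± 0.35 (limma adjusted p = 0.464). Of the 5 immediate-early and dissociation genes with a shared region, 3 were lower on 32 kPa and 2 at day 14 (all genes 41% and 6.35%), among 24 in the list.

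RUNX genes gained regions and RNA in both settings. Runx1, a regulator of blood and connective tissue cells, had 5 shared regions, of which that at chr16:92930179-92930395 was also 1.06 higher on 32 kPa than on 0.2 kPa. Its RNA was at 6.17, 8.34 and 7.204 CPM in CD1 sham, 34.1, 38.3 and 37.4 on 0.2 kPa and 41.3, 44.0 and 36.5 on 32 kPa. In C57BL/6 it was at 8.27, 25.3, 17.8 and 23.8 in sham, 61.4, 70.1, 85.1 and 109 at day 14 and 42.4, 16.7, 13.2 and 26.7 at day 56. All day 14 libraries lay above all others of that strain, and day 56 overlapped sham. The rise was 2.37 ± 0.14 (SE, limma adjusted p = 8.18e-08) on 32 kPa and 2.24 ± 0.38 (limma adjusted p = 0.00116) at day 14. Runx2, the osteoblast regulator, had 4 regions and rose by 3.36 ± 0.11 on 32 kPa, with no overlap between 4.14, 3.31 and 3.55 CPM in sham and 40.4, 42.6 and 40.4 on the gel. At day 14 it was at 7.09, 6.65, 4.16 and 6.89 CPM against 0.136, 0.0632, 0.908 and 1.04 in sham (limma adjusted p = 0.00402). Its fall from day 14 to day 56 of 2.68 had an adjusted p of 0.0494 by limma. The fall no longer passed by edgeR (-2.25), with a replicate block, with a pseudocount of 0.5 (-2.70) or with no filter on low values (-2.68). Nor did it pass without any 1 of 7 of the 8 libraries. Those values ran from -2.23 (without day 56 replicate 3) to -2.89 (without day 56 replicate 4).

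Of the 38 activation transcription factor genes, 19 (50%) had a shared region, beside 15.1% of all tested genes. Of these 10 were higher and 6 lower on 32 kPa (all genes 32.4% and 41%), and 6 higher and 4 lower at day 14 (all genes 9.54% and 6.35%), with median log2 changes of 0.58 and 0.27. The 12 of 30 lung mesenchyme transcription factor genes with a region (40.0%) had 2 higher and 5 lower on 32 kPa, beside 41% of all genes lower, and 1 higher and 4 lower at day 14, beside 6.35% lower. Their median log2 changes were -0.53 and -0.21. The riser in both was Lef1, a nuclear effector of WNT signalling, which had 3 regions and rose by 3.51 ± 0.49 on 32 kPa and by 2.56 ± 0.46 at day 14 (limma adjusted p = 0.0017). Gli2, an effector of hedgehog signalling, fell by 4.50 on 32 kPa and had -0.06 ± 0.33 at day 14 (limma adjusted p = 0.935). Hif1a, the oxygen-sensing factor, was called at day 14 and on 0.2 kPa, but not on 32 kPa. It was at 82.1, 105, 119 and 108 CPM in C57BL/6 sham and 218, 298, 260.5 and 204 at day 14 (log2 difference 1.28 ± 0.22). Its 0.2 kPa difference was 0.48 ± 0.14 (limma adjusted p = 0.0102). Its 32 kPa difference was 0.33 ± 0.14 (limma adjusted p = 0.0518), and edgeR, DESeq2 and the fit without stiff gel replicate 2 (0.46) called it.

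Secreted signals and their receptors are described next. Bmper, a secreted regulator of BMP ligands, had 10, the most of any gene, of which 2 overlap 1 day 14 region. The strongest, at chr9:23485867-23486163 by the end of the gene, went from a log2 concentration of 0.49 to 6.14 in culture and from 1.61 to 5.33 at day 14. Bmper RNA was at 32.1, 31.4 and 23.8 CPM in CD1 sham, 80.8, 69.3 and 69.0 on 0.2 kPa and 50.6, 50.7 and 71.1 on 32 kPa. It was at 39.8, 50.6, 50.3 and 37.7 in C57BL/6 sham, 186, 268, 227 and 166 at day 14 and 80.2, 59.8, 38.3 and 76.0 at day 56. Day 14 stood clear of every other group of that strain, and the log2 difference was 0.85 ± 0.15 on 32 kPa and 2.28 ± 0.23 at day 14 (limma adjusted p = 2.04e-05).

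Grem1, a secreted BMP antagonist, lies beside Fmn1, and its region at chr2:113765069-113765264 is 6526 bp from its start. Grem1 RNA was at 0.176, 0 and 0.0491 CPM in CD1 sham, 66.8, 70.6 and 53.5 on 0.2 kPa and 18.7, 18.9 and 57.2 on 32 kPa. Among C57BL/6 libraries it was at 0, 0, 0.0259 and 0.460 in sham, 48.4, 48.3, 37.5 and 74.0 at day 14 and 2.20, 0, 1.66 and 4.31 at day 56. It was nearly silent in both shams and present in every gel and day 14 library, with 8.63 ± 0.69 on 32 kPa (8.12 without stiff gel replicate 3) and 9.63 ± 1.32 at day 14 (limma adjusted p = 0.000239). Fmn1 rose by 3.43 ± 0.25 and 2.20 ± 0.48 (limma adjusted p = 0.00616).

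Il1rl1, the receptor of interleukin 33, had a pair of regions inside 1 day 14 region at -28559 bp from its start, with gains of 3.93 and 3.11 on 32 kPa and 3.91 at day 14. Its RNA was at 0.741, 0.620 and 0.262 CPM in CD1 sham and 96.0, 96.1 and 136 on 32 kPa, and at 0, 0, 1.14 and 0.411 in C57BL/6 sham and 6.45, 6.23, 11.1 and 9.17 at day 14. Both rises passed (limma adjusted p = 3.54e-09 and 0.00199), with no overlap in either strain. Pdgfc, a ligand of the PDGF receptors, had 5 regions, gained up to 3.81 and 4.47, and rose by 2.08 ± 0.13 on 32 kPa and 2.5 ± 0.23 at day 14. Of 57 growth factor signalling genes 28 (49.1%) had a region, beside 15.1% of all tested genes. On 32 kPa 9 were higher, a share near the 32.4% of all genes, and 17 lower (all genes 41%), and at day 14, 5 were higher and 1 lower (all genes 9.54% and 6.35%). Dusp5, a MAP kinase phosphatase with 5 regions, rose by 4.13 on 32 kPa but had 0.08 ± 0.71 at day 14 (limma adjusted p = 0.964), and Hgf, the hepatocyte growth factor gene with 5 regions, fell by 1.80 and had 0.25 ± 0.25.

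Of the 32 TGF-beta and activin pathway genes, 11 (34.4%) had a region, with 3 higher and 7 lower on 32 kPa and 2 higher and 1 lower at day 14, and median log2 changes of -0.37 and 0.32. Of the 24 YAP, TAZ and TEAD genes, 12 (50%) had a region, with 6 higher and 4 lower on 32 kPa and 2 higher and 1 lower at day 14, and medians of 0.43 and -0.20. Both lists had more members with a region than the 15.1% of all tested genes. Of all genes, 32.4% were higher and 41% lower on 32 kPa, and the day 14 shares were 9.54% and 6.35%. Ccnd1, the cyclin D1 gene, was higher in both, by 4.64 ± 0.09 and 1.60 ± 0.22 (limma adjusted p = 0.000221). Ccn2, the connective tissue growth factor gene and a target of both pathways, had 3 regions with smaller folds of up to 1.83. Its RNA was at 1294, 1046 and 1098 CPM in CD1 sham and 2959.6, 2728 and 3023 on 32 kPa, and at 502, 618, 758 and 701 in C57BL/6 sham and 1458, 1698, 1689 and 1152 at day 14. The groups did not overlap, and the rises of 1.22 ± 0.13 and 1.26 ± 0.17 both passed (limma adjusted p = 6.2e-06 and 0.000255). Igfbp3, an IGF binding protein gene with 2 regions, fell by 4.81 on 32 kPa and by 2.28 at day 14 (limma adjusted p = 0.0012).

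Of 35 collagen and collagen processing genes, 15 (42.9%) had a shared region, beside 15.1% of all tested genes. Their RNA was higher in 3 and lower in 9 on 32 kPa, where 32.4% and 41% of all genes were, but higher in 12 of the 15 at day 14, where 9.54% of all genes were. The median log2 change of the 15 was -1.73 on 32 kPa (-0.26 over all genes) and 1.70 at day 14 (0.05 over all genes). Col1a2, a chain of type I collagen, was at 9325, 9359 and 12980.0 CPM in CD1 sham and 2157, 2254 and 2462 on 32 kPa, and at 6631, 6198, 7376 and 5718 in C57BL/6 sham and 18052, 18121, 21519 and 21624 at day 14. It fell by 2.31 in culture and rose by 1.66 ± 0.22 after injury (limma adjusted p = 0.00018), without overlap. Col1a2 is also the gene by which the C57BL/6 cells were traced. Col3a1 fell by 6.65 on 32 kPa and rose by 1.97 ± 0.29 at day 14. Col5a1, with 3 regions, fell by 2.62 and rose by 1.97 ± 0.22.

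Lox, the collagen crosslinking enzyme, with 4 regions of which 2 overlap 1 day 14 region, rose in both. It was at 231, 238 and 186 CPM in CD1 sham and 1701, 1303 and 2395 on 32 kPa, and at 126, 299, 390.2 and 380.5 in C57BL/6 sham and 920.0, 1369, 1707 and 1524 at day 14. Each rise exceeded the spread of its libraries, at 2.88 ± 0.19 and 2.34 ± 0.36 (limma adjusted p = 1.86e-07 and 0.000544).

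Of 41 genes of matricellular and adhesive glycoproteins, 16 (39.0%) had a region, beside 15.1% of all tested genes. On 32 kPa 6 were higher and 9 lower (all genes 32.4% and 41%), and at day 14, 11 were higher and 1 lower (all genes 9.54% and 6.35%), with median log2 changes of -1.08 and 1.28. Tnc, tenascin C, was at 45.2, 36.3 and 39.3 CPM in CD1 sham, 433, 403 and 384 on 0.2 kPa and 305, 301 and 575 on 32 kPa. It was at 14.1, 53.2, 49.0 and 27.7 in C57BL/6 sham, 1319, 1786, 1650.3 and 1912 at day 14 and 149, 29.5, 98.8 and 290.3 at day 56, with 1 of its regions still 1.77 above sham in accessibility then. It rose by 3.10 ± 0.20 and 5.74 ± 0.56 (limma adjusted p = 1.74e-05). Spp1, osteopontin, was at 3.10, 3.26 and 3.95 CPM in CD1 sham, 113, 85.0 and 61.8 on 0.2 kPa and 24.9, 20.4 and 30.4 on 32 kPa. Its C57BL/6 levels were 14.1, 18.8, 41.7 and 31.4 in sham, 8618, 15495, 10108 and 7738 at day 14 and 75.9, 121, 99.1 and 89.9 at day 56. All 4 day 56 libraries stayed above all 4 shams, at 1.89 ± 0.31 (limma adjusted p = 0.0546), short of the threshold. Spp1 is also abundant in macrophages, and the summed CPM of 22 leukocyte markers was 326 to 481 in sham, 770 to 2550 at day 14 and 247 to 825 at day 56, whose part in the Spp1 change was not tested.

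Cthrc1, a secreted glycoprotein of injury-activated fibroblasts, was at 19.4, 18.8 and 19.5 CPM in CD1 sham, 116, 118 and 106 on 0.2 kPa and 69.8, 59.5 and 54.6 on 32 kPa. In C57BL/6 it was at 1.38, 5.52, 2.77 and 1.48 in sham, 372, 324, 311 and 322 at day 14 and 7.46, 18.4, 10.525 and 22.0 at day 56. The rise was 1.54 ± 0.12 in culture and 7.16 ± 0.40 after injury (limma adjusted p = 2.38e-07), with every day 56 library above sham but 0.0608 as its adjusted p by limma. Ccn4, a WNT-induced matricellular gene with 5 regions, of which 1 gained 5.07 and 3.70, rose by 2.77 ± 0.20 and 2.38 ± 0.25.

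Postn and Thbs2 took opposite directions in the 2 settings. Postn, periostin, was at 741, 733 and 622 CPM in CD1 sham and 195, 213 and 385 on 32 kPa, and at 211, 449, 771 and 249 in C57BL/6 sham and 1309, 1501, 1349.5 and 1531 at day 14. Thbs2, thrombospondin 2, was at 419, 399.9 and 214 CPM in CD1 sham and 15.7, 16.5 and 32.0 on 32 kPa, and at 246, 163, 283 and 129 in C57BL/6 sham and 541, 546, 621 and 691 at day 14. Postn fell by 1.59 and Thbs2 by 4.15 on 32 kPa, and they rose by 1.99 ± 0.35 and 1.65 ± 0.35 at day 14 (limma adjusted p = 0.00147 and 0.00556), with no overlap of groups in any of the 4 comparisons. The Thbs2 region at chr17:14610896-14611412 gained 3.03 in culture, where the RNA was lower, and 2.60 at day 14.

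Of 34 genes of matrix proteases and inhibitors, 12 (35.3%) had a region, beside 15.1% of all tested genes. On 32 kPa 4 were higher and 8 lower (all genes 32.4% and 41%), and at day 14, 7 were higher and 1 lower (all genes 9.54% and 6.35%), with medians of -2.72 and 1.73. Serpinb2, which is in none of the lists and is an inhibitor of plasminogen activators, had RNA at 0.0882, 0.0443 and 0.0819 CPM in CD1 sham, 38.8, 37.5 and 30.8 on 0.2 kPa and 41.5, 25.2 and 41.0 on 32 kPa. In C57BL/6 it was at 0, 0, 0.182 and 0 in sham, 24.2, 31.8, 34.8 and 15.7 at day 14 and 0, 0, 0 and 0.0490 at day 56. It was present in every gel and day 14 library and near 0 elsewhere, with 8.51 ± 0.26 and 9.18 ± 0.79 (limma adjusted p = 7.4e-06). Adam12, a metalloprotease with 4 regions, rose by 4.07 ± 0.13 and 6.62 ± 1.26. Adamts12, another with 6 regions, fell by 3.20 on 32 kPa, from 95.8, 39.9 and 99.2 CPM to 5.10, 5.24 and 23.5, and rose by 2.87 ± 0.26 at day 14. Stiff gel replicate 3 was the highest of its group for Adamts12, Postn and Thbs2, and without it the falls were -3.90, -1.87 and -4.46 on the log2 scale, all still called.

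The 33 contractile and actin cytoskeleton genes had 12 (36.4%) with a region, beside 15.1% of all tested genes. On 32 kPa 5 were higher and 4 lower (all genes 32.4% and 41%), and 4 were higher at day 14 (all genes 9.54%), with medians of -0.16 and 0.38. The 15 smooth muscle and pericyte markers summed to 1992 to 3632 CPM in CD1 sham and 652 to 964 on 32 kPa, and to 1889 to 2355 in C57BL/6 sham and 3096 to 3602 at day 14. Postn is 1 of the 15, with a mean of 420 CPM in C57BL/6 sham and 1422.5 at day 14. A large part of the rise in the sum is therefore Postn. The part of these markers in the changes was not tested. Actn1, an actin crosslinker, rose by 2.44 ± 0.26 and 1.46 ± 0.19. Of 32 integrin and focal adhesion genes 15 (46.9%) had a region, beside 15.1% of all tested genes. On 32 kPa 8 were higher and 6 lower, the latter near the 41% of all genes, and at day 14, 3 were higher and 2 lower (all genes 9.54% and 6.35%). Tns3, tensin 3, had 8 regions and was called in culture only, at 211, 206 and 208 CPM in CD1 sham and 509, 520.3 and 692 on 32 kPa. Its day 14 level of 78.7, 77.7, 79.9 and 81.0 lay within the sham range of 99.1, 124, 66.1 and 77.7, with a difference of -0.13 ± 0.24 (limma adjusted p = 0.791). Of 37 cell cycle genes 5 (13.5%) had a region, a share below the 15.1% of all tested genes, and 4 of these were higher on 32 kPa and 4 at day 14 (all genes 32.4% and 9.54%), among them Cdkn2b, an inhibitor of cyclin D kinases, with 2.19 ± 0.26 and 2.30 ± 0.34.

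Injury-induced fibroblast genes, a list named for their known rise in injured lung and so no independent evidence of direction, had 19 of 31 with a region (61.3%), beside 15.1% of all tested genes. Of these 10 were higher and 7 lower on 32 kPa (all genes 32.4% and 41%), 13 higher at day 14 (all genes 9.54%), and 14 lower at day 56 than at day 14 (all genes 8.48%). Kif26b, a kinesin family gene with 7 regions, was at 0, 3.39, 0.415 and 1.11 CPM in C57BL/6 sham and 42.8, 52.3, 55.2 and 77.1 at day 14, a rise of 6.95 ± 1.04 (limma adjusted p = 0.000476). In culture it was at 1.25, 1.32 and 1.08 on 32 kPa against 0.599, 0.281 and 1.24 in sham. That difference of 0.88 ± 0.46 (limma adjusted p = 0.11) passed without CD1 sham replicate 3 (1.40). On 0.2 kPa Kif26b was at 1.32, 1.73 and 1.83 CPM and was called, at 1.20 ± 0.46 (limma adjusted p = 0.0371). Ncam1, a neural cell adhesion molecule gene with 5 regions, rose by 1.93 ± 0.31 and 2.47 ± 0.24. The plots by library show 12 of the genes.

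**Figure D5:**
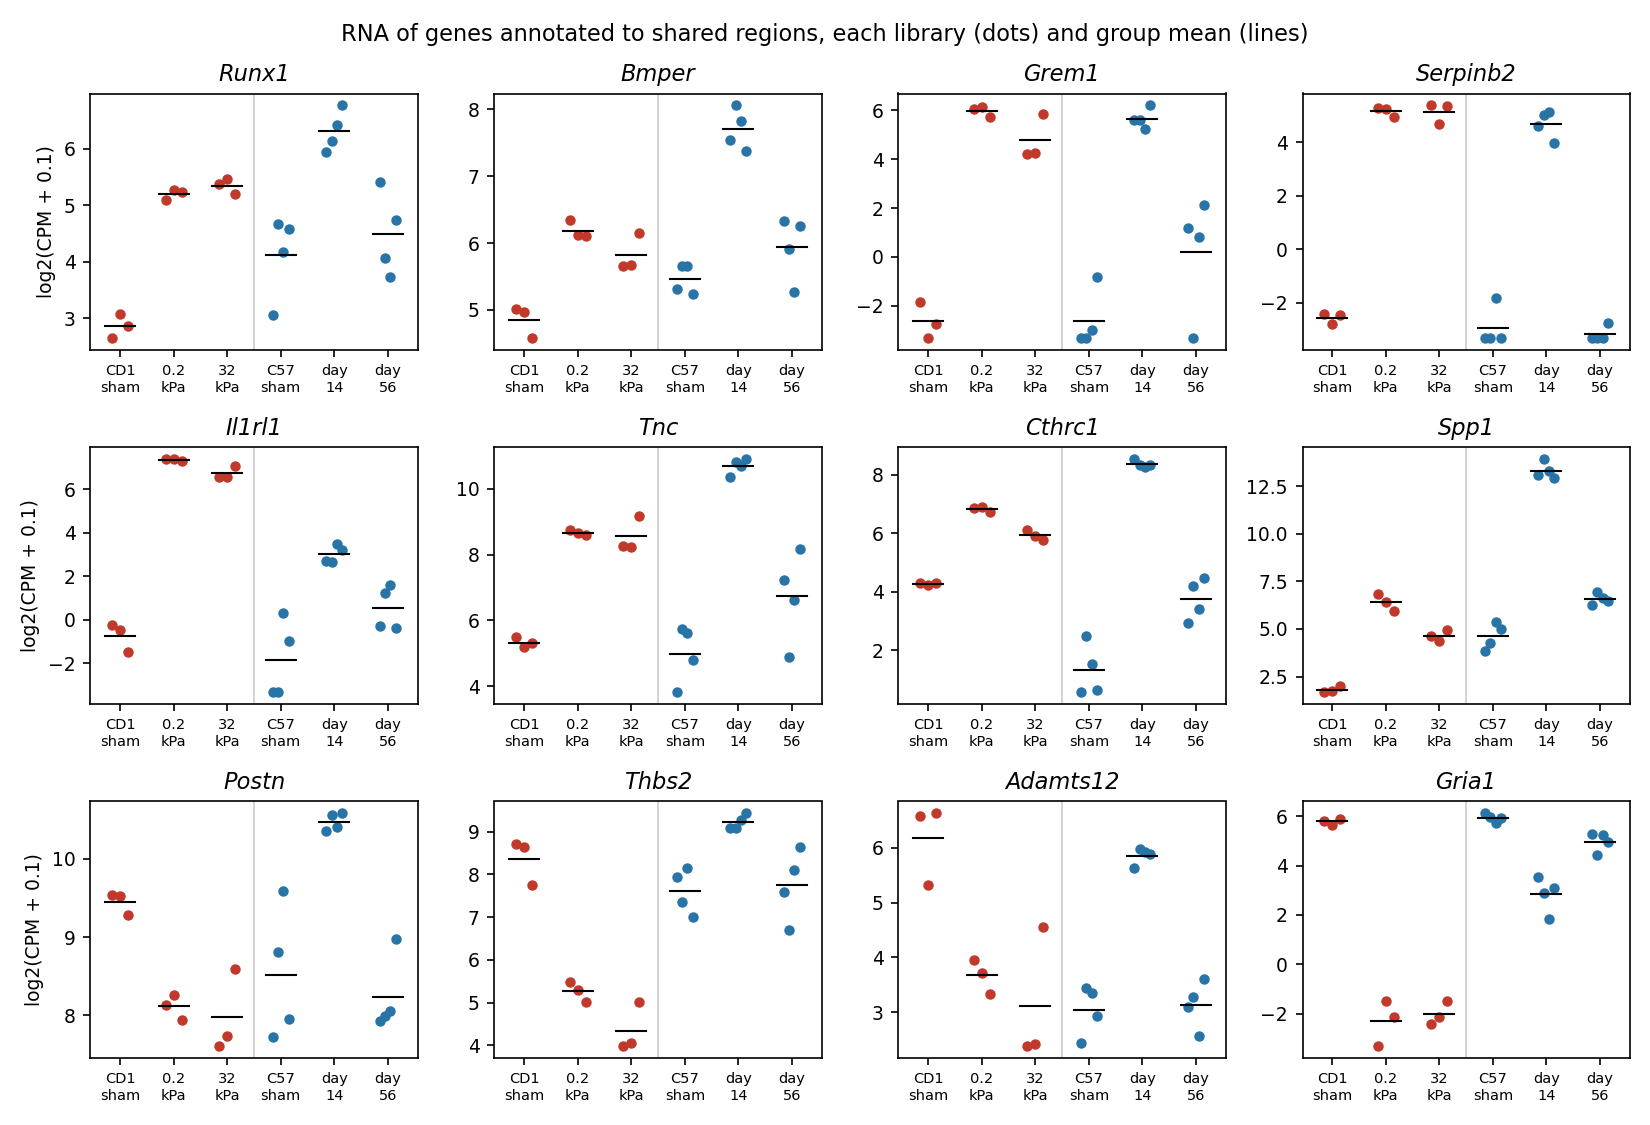
Each panel shows 1 gene, with log2(CPM + 0.1) on the y axis and the 6 groups on the x axis; dots are libraries (3 per CD1 group, red, and 4 per C57BL/6 group, blue) and lines are group means. Serpinb2 and Grem1 go from near 0 in both shams to well above it on the gels and at day 14, while Postn, Thbs2 and Adamts12 are lower on the gels than in CD1 sham and higher at day 14 than in C57BL/6 sham.

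Promoter regions accompanied RNA gains at several genes, which are named because they were higher in both comparisons. Ptprn, a phosphatase-like protein of secretory vesicles, has its region 18 bp from the start, with gains of 3.38 and 2.02. Its RNA was at 0.846, 0.266 and 0.639 CPM in CD1 sham, 124, 148 and 164 on 0.2 kPa and 139, 138 and 129 on 32 kPa, and at 0.156, 0, 0.182 and 0.411 in C57BL/6 sham, 14.4, 14.9, 14.4 and 14.3 at day 14 and 0.306, 0.770, 1.66 and 0.441 at day 56. It was near 0 in both shams and rose by 7.83 ± 0.32 and 6.67 ± 0.78 (limma adjusted p = 6.69e-05). Timp1, an inhibitor of matrix metalloproteases, whose region at chrX:20869329-20869565 gained 2.14 and 1.58, was at 90.0, 80.05 and 103 CPM in CD1 sham and 4245, 3976 and 3125 on 32 kPa. It was at 78.9, 53.5, 69.9 and 69.0 in C57BL/6 sham, 919, 1108, 951 and 724 at day 14 and 52.5, 105, 64.8 and 54.0 at day 56, and rose by 5.25 ± 0.15 and 3.81 ± 0.21.

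Plaur, the urokinase receptor, Kcnn4, a calcium-activated potassium channel, and Chn1, a regulator of Rac, rose by 4.86 ± 0.19, 5.16 ± 0.38 and 1.82 ± 0.10 on 32 kPa. At day 14 they rose by 2.53 ± 0.24, 4.27 ± 0.91 and 1.40 ± 0.22. Havcr2 and Cd300lb, known from myeloid cells, were at 24.8, 26.3 and 30.2 and 2.74, 2.10 and 3.86 CPM on 32 kPa, where the 22 leukocyte markers summed to 14.95 to 15.33 CPM and 6 of them, including Tyrobp and Adgre1, were at 0. At day 14 Havcr2 was at 3.64, 3.42, 2.72 and 7.94 CPM against 0, 0, 0.441 and 0.750 in sham, a call that edgeR and DESeq2 did not make and that ended without any of 6 of the 8 libraries (4.29 to 5.22).

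Among all genes with a shared region, the largest rises common to both settings also included Cemip, a hyaluronan-degrading protein, at 6.54 ± 0.37 and 7.41 ± 1.32. Melk, a mitotic kinase, rose by 6.18 ± 0.19 and 5.93 ± 1.06, and E2f7, a cell cycle repressor, by 6.00 ± 0.20 and 5.85 ± 1.08. The largest common falls included Gria1, a glutamate receptor subunit with 4 shared regions, at 56.7, 50.04 and 60.1 CPM in CD1 sham and 0.0874, 0.124 and 0.254 on 32 kPa, and 70.1, 63.3, 52.5 and 61.6 in C57BL/6 sham and 11.6, 7.42, 3.51 and 8.50 at day 14. Gria1 fell by 8.54 on 32 kPa and by 3.06 at day 14 (limma adjusted p = 1.97e-05), while its intron 2 region gained 3.65 and 3.21. Mapt, the tau gene, fell by 3.43 and by 3.05, from 36.5, 19.8, 13.2 and 25.9 to 2.37, 2.69, 2.18 and 3.22 CPM after injury. The closest shared region lay 78375 bp from the start of Gria1 and 88009 bp from that of Mapt. The 2 Mapt regions gained at most 1.76 on 32 kPa and 1.04 at day 14, the latter close to the list's limit of 1.0. At both genes RNA thus fell while a distant region annotated to the gene opened, and no link between them was measured.

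Opposite changes between the settings were seen in both directions. Tmem171 was at 0.776, 1.93 and 1.02 CPM in CD1 sham and 8.95, 8.80 and 7.02 on 32 kPa, and at 7.58, 9.03, 11.9 and 13.8 in C57BL/6 sham and 1.34, 1.23, 0.418 and 1.00 at day 14, which is 2.69 ± 0.31 and -3.42 ± 0.45. Chl1, a neural adhesion molecule, was at 39.3, 13.7 and 38.9 CPM in CD1 sham and 0.0874, 0.186 and 0.0299 on 32 kPa, and at 0, 0, 3.50 and 0.726 in C57BL/6 sham and 190.1, 360.1, 267 and 157 at day 14. Cxcl13, a chemokine that attracts B cells, was at 9.40, 34.0 and 6.65 CPM in CD1 sham and 0, 0 and 0.0449 on 32 kPa, and at 1.72, 3.68, 2.02 and 0.677 in C57BL/6 sham and 90.3, 266, 154 and 36.0 at day 14. For both genes all day 14 libraries exceeded all shams and all 32 kPa libraries lay below theirs, while the regions near them gained in both settings, 2.28 and 1.63 for Chl1 and 3.46 and 3.38 for Cxcl13.

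The genes nearest the strongest regions mostly had little RNA. Gata3 was at 0.212, 0.458 and 0.115 CPM in CD1 sham and 5.48, 7.15 and 5.00 on 32 kPa, a rise of 4.45 ± 0.41 (limma adjusted p = 2.56e-06), and at 0.604, 0, 0.207 and 0.774 in C57BL/6 sham and 0.455, 0.855, 0.356 and 0.944 at day 14 (limma adjusted p = 0.476). Fut9 stayed at or under 0.0655 CPM in CD1 sham and 32 kPa libraries and was at 1.58, 3.67, 0.732 and 1.11 CPM at day 14 against 0, 0, 0.104 and 0.484 in sham (limma adjusted p = 0.0504; DESeq2 called it, edgeR did not, and limma called it without sham replicate 4, at 5.07). Zhx2 fell by 1.47 on 32 kPa and had -0.38 ± 0.28 at day 14. Crbn fell by 0.53 on 32 kPa and had -0.32 ± 0.15 at day 14, and Odf2l had 0.02 ± 0.19 and 0.44 ± 0.22. Myl10 RNA was 0 in every CD1 sham and 32 kPa library and at most 0.105 CPM at day 14.

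The share of other cell type markers with a shared region varied around the 15.1% of all tested genes. Of 22 leukocyte marker genes 2 (9.09%) had a region, of 18 endothelial 6 (33.3%), of 18 epithelial 4 (22.2%), of 10 mesothelial 3 (30.0%) and of 15 smooth muscle and pericyte 3 (20%). Endothelial markers summed to 496 to 523 CPM in CD1 sham and 161 to 206 on the gels, and to 216 to 422 in the C57BL/6 groups, which had no CD31 step. Epithelial markers summed to 155 to 408 CPM in CD1 sham and 5.22 to 7.19 on the gels, and to 146 to 357 in C57BL/6 sham, 36.7 to 94.8 at day 14 and 57.4 to 216 at day 56. The sum of the smooth muscle and pericyte markers, which include Postn, was higher at day 14 than in C57BL/6 sham, as given above. It was 1130 to 2454 CPM at day 56. Mesenchyme markers with a region, 4 of 12, were all lower on 32 kPa (all genes 41%). At day 14, 2 of them were higher and 1 lower (all genes 9.54% and 6.35%), with a median log2 change of 1.06. Among the 4, Gsn, gelsolin, fell by 7.48 on 32 kPa and by 2.68 at day 14. The part of other cells in the accessibility of the shared regions was not tested.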

How the data were processed

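The authors deposited lists of regions that differ between groups, with log2 concentrations (mean normalized read density per group), log2 folds and FDR values per region, per the file headers; no source used here states whether peak calling was done per library or after pooling. The submitters' processing notes name mm10 and, without roles, HISAT2, Picard, featureCounts, Subread, DESeq2, Bowtie2, SAMtools, MACS2, bedtools, DiffBind and HOMER. The authors deposited RNA signal as gene counts divided by size factors per library, in 1 table per strain; all values (100%, tolerance 0.05) gave whole reads. Depth is unknown for the regions. Unnamed genes held 2.13 to 4.77% of CD1 reads and were left out.

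From these, regions were overlapped, sequence was read from RefSeq's GRCm38.p6 (pysam 0.24.0) and words were counted in 300 bases around each centre. RNA values were rescaled by medians of ratios, genes with a mean under 1 were dropped (18488 CD1 and 21134 C57BL/6 genes stayed), and log2(value + 1) was fitted per strain over all its groups with limma 3.58.1 (trend, R 4.3.3), without a block, with Benjamini-Hochberg adjusted p under 0.05 as a call. The fits were tested on simulated data with the real means. Alternatives were edgeR 4.0.16 and DESeq2 1.42.0 on the recovered reads, values as deposited, a pseudocount of 0.5, no filter, a replicate block, each library left out, and windows of 200 bases.

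Genes were named by a rule: those nearest the 12 regions with the largest smaller fold, the 10 with most shared regions, the 10 common rises, 5 common falls and 5 opposite changes in each direction that were largest among genes called in both settings, list members with most regions, and marker genes of the study. Promoter genes and a few in text and figures were added after their values were seen. Members, lists and genes were chosen with earlier results of these data known.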

Additional observations from a re-analysis of the deposited data

Results flagged for a closer look

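In 29 genes near shared regions, each group of 4 C57BL/6 libraries was searched for a library far from the other 3 by Dixon's test. Of 87 groups, 7 held such a library. The rate of about 1 in 20 by chance holds for normally distributed values, which CPM near 0 are not, so no excess is read from this. A group with 3 libraries at 0 and 1 above is always flagged, as were both Serpinb2 groups below. Runx2 at day 14 was lowest in replicate 3, at 4.16 CPM against 6.65 to 7.09 in the others. Fosl1 in sham was lowest in replicate 1, at 0.682 CPM. At day 56, replicate 4 was highest for Postn, the matricellular protein periostin, at 504 CPM against 245 to 266, for Pdgfc at 8.08 CPM and for Serpinb2 at 0.0490 CPM, where the other 3 were at 0. The other ones were Grem1 in sham replicate 4 at 0.460 CPM and Serpinb2 in sham replicate 3 at 0.182 CPM.

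The day 14 and day 56 effects against sham differed, by limma adjusted p, in 25 of the 29 genes. The test of that difference is the log2 change from day 14 to day 56. Many of these genes were named because they were called at day 14 in the same RNA libraries. The count follows in part from that choice, so nothing is concluded from it. Of all genes, 5.7% were higher and 8.48% lower at day 56 than at day 14. Among signals and regulators, the change was -1.95 for Runx1, -2.68 for Runx2, -2.56 for Fosl1, 1.15 for Fos, -1.89 for Bmper, -6.04 for Grem1 and -2.30 for Pdgfc. Among matrix and matricellular genes it was -2.63 for Lox, -2.35 for Postn, -4.08 for Tnc, -4.75 for Cthrc1, -6.85 for Spp1, -1.59 for Thbs2, -0.90 for Ccn2 and -2.71 for Ccn4. Among proteases and inhibitors it was -3.91 for Timp1, -2.86 for Adamts12 and -9.56 for Serpinb2, a value that rests on 2 reads at day 56 and so depends on the pseudocount. It was -4.54 for Ptprn, -4.90 for Kif26b and -5.78 for Cxcl13. Chl1 changed by -4.58, and this call ended without day 14 replicate 2 (-4.37) or 3 (-4.51) or day 56 replicate 3 (-4.37). Gria1, Mapt and Tmem171, which had fallen at day 14, changed by 2.01, 2.83 and 2.71.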

How the results depend on the processing

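Over 2346 alternative values of 176 log2 changes of the genes named in the text, 10 log2 changes, none of them called, took the other sign in some value, and every called one kept its direction. With other tools or settings, 8 values lost a call and 4 gained one, and with 1 library left out 24 lost and 6 gained one. The sign changes under settings were Odf2l on 32 kPa with values as deposited (-0.069), Dusp5 at day 14 by DESeq2 (-0.044) and edgeR (-0.085), and, from day 14 to day 56, A530072M11Rik with a pseudocount of 0.5 (-0.0025) and Hgf with values as deposited (-0.076). With 1 library left out, Odf2l ran from -0.18 to 0.18 on 32 kPa, and at day 14 Tns3 ran from -0.25 to 0.015, Gli2 from -0.20 to 0.054 and Dusp5 from -0.48 to 0.43. From day 14 to day 56, Fut9 ran from -1.81 to 0.36, A530072M11Rik from -0.78 to 1.55, Hgf from -0.034 to 0.32, Tns3 from -0.29 to 0.10, Gli2 from -0.52 to 0.11 and Dusp5 from -0.28 to 0.30. Counts for genes with a shared region moved most where there were few calls. Between 32 and 0.2 kPa, DESeq2 called 13 lower (39 of all genes) where limma called 0. Leaving out 1 library gave 0 to 35 higher and 0 to 123 lower there. The upper values came without stiff gel replicate 3, where 337 and 509 of all genes were called. For day 56 against sham, DESeq2 called 18 higher and 6 lower, beside 54 and 26 of all genes. The values as deposited gave 2 lower, the replicate block gave 0 lower, and leaving out 1 library gave 0 to 2 higher and 0 to 1 lower. For day 56 against day 14, the values as deposited gave 120 higher in place of 195, and leaving out 1 library gave 120 to 229 higher, with 121 without day 14 replicate 2 and 120 without day 14 replicate 3. Leaving out 1 library gave 1007 to 1054 higher genes on 32 kPa and 358 to 464 at day 14. The AP-1 share of the shared regions was 66.8% in 200 bases, where fewer bases are searched. The cause of the other moves was not tested.

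Samples with the same replicate number showed little common deviation (correlations from -0.159 to 0.116). With so few libraries this cannot show that they are unpaired, and the labels do not say. With the replicate block, 1041 genes were higher and 1318 lower on 32 kPa, and 444 and 194 at day 14. Precision is limited by 3 or 4 libraries per group and, for the regions, by the lack of values per library.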
